A study of Mus musculus with 48 samples.

Results

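Hearts of mice aged 16 weeks were set against hearts of mice aged 8 weeks, all of them after ischaemia and reperfusion (I/R). The comparison rests on 12 arrays, 6 of 16-week and 6 of 8-week I/R hearts, chosen by their labels from the 48 arrays of the series, which holds I/R and normoxic hearts of 8, 16, 32 and 48 weeks (6 of each). It asks which transcripts of the reperfused left ventricle differ between these ages, over all 9811 genes that were detected. All mice were male C57BL/6 animals bought at 7 weeks of age and housed until the age of their group. Under pentobarbital anaesthesia each heart was removed and perfused outside the body (Langendorff mode), stabilised for 20 min, made ischaemic for 25 min and reperfused for 45 min. Normoxic hearts of 16 weeks and of 8 weeks (6 each) were perfused for the same time without ischaemia, and serve here as the same step of age without I/R. The 32-week and 48-week hearts enter the shared fit and the levels by age. Every group was anaesthetised, excised and perfused, so no group stands for an unperfused heart, and a heart perfused in this way is cut off from the blood and nerves of the animal. RNA was taken from the left ventricle, and each array holds the RNA of 1 heart.

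Ischaemia deprives the heart muscle of oxygen and substrate, and reperfusion restores both with a burst of oxidants and an overload of calcium that can injure the cells further. Over the weeks in question a mouse passes from the end of rapid growth to full adulthood, while the heart's muscle cells no longer divide and its vessels and matrix mature. Heart cells also keep a circadian clock, in which the activators BMAL1 (gene Arntl) and CLOCK drive the Per and Cry genes, whose proteins repress the activators in turn. The RNA of the Per genes and of Arntl therefore peaks at opposite times of day, and the labels give no time of day for any heart.

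Levels are given as the log2 of the background-corrected and normalized signal of a gene's brightest probe, so a difference of 1 is a doubling. A difference is 16 weeks minus 8 weeks and stands with its standard error (SE) from the fit, in which 6 hearts a group and the spread shared over all 8 groups of the series set the precision. A gene was taken as changed when its adjusted p (limma, Benjamini-Hochberg over all genes) was under 0.05. The RNA integrity number was 8.03 ± 0.356 in 16-week and 8.08 ± 0.147 in 8-week I/R hearts (SD, n = 6 each, exact permutation p = 0.8355). The background of the arrays, taken as the median signal, lay between 177.2 and 195.3 in 16-week hearts and between 156.4 and 174.5 in 8-week hearts. These ranges did not overlap (two-sided exact permutation p = 0.002165, the smallest that 924 splits allow). The 16-week arrays detected 12433 to 13369 probes and the 8-week arrays 13099 to 13854 (exact permutation p = 0.05195). No slide, run or date was given for the arrays, so age and any batch that ran with it cannot be told apart.

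The age step changed a small share of the transcriptome. In 16-week hearts 173 of 9811 genes had changed (1.76%), of which 56 had risen (0.571%) and 117 had fallen (1.19%), and 1388 genes (14.1%) had an unadjusted p under 0.05. The rises ran from 1.22-fold to 3.66-fold and the falls from 1.24-fold to 3.03-fold, with 9 rises and 11 falls of at least 2-fold. The median difference over all genes was -0.0035. For 38 genes every 16-week heart lay above every 8-week heart (0.387%), and for 62 genes every 16-week heart lay below (0.632%). Of the 173 changed genes, 112 were detected on all 12 arrays (64.7%, against 63.8% of all genes). The probe of 10 genes that fell was not detected in any 16-week heart, and that of 4 genes that rose was not detected in any 8-week heart, so these have only a bound on 1 side.

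The number of calls depended on the arrays and settings used, while the direction of all 173 genes stayed the same in every alternative that tested them. I/R hearts varied more than normoxic hearts (median SD per gene 0.238 and 0.220 in 16-week and 8-week I/R hearts, 0.190 and 0.184 in normoxic hearts of these ages), so a spread shared with normoxic hearts is smaller than their own. A fit to the 24 I/R arrays alone called 85 genes, and a fit to the 12 arrays compared called 3, namely Rnf144a, Prnd and Cox4i2 (the last outside the naming rule), with 1107 genes at an unadjusted p under 0.05. Median centring in place of quantile normalization called 46 genes and moved the split to 20 higher and 26 lower. Leaving out 8-week replicate 3 called 89 genes, leaving out 16-week replicate 1 called 90 and leaving out 8-week replicate 1 called 91. Without 16-week replicates 1 and 3, whose RNA integrity was below that of every 8-week heart, 59 genes were called. This last alternative was chosen after seeing the data.

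**Figure D1:**
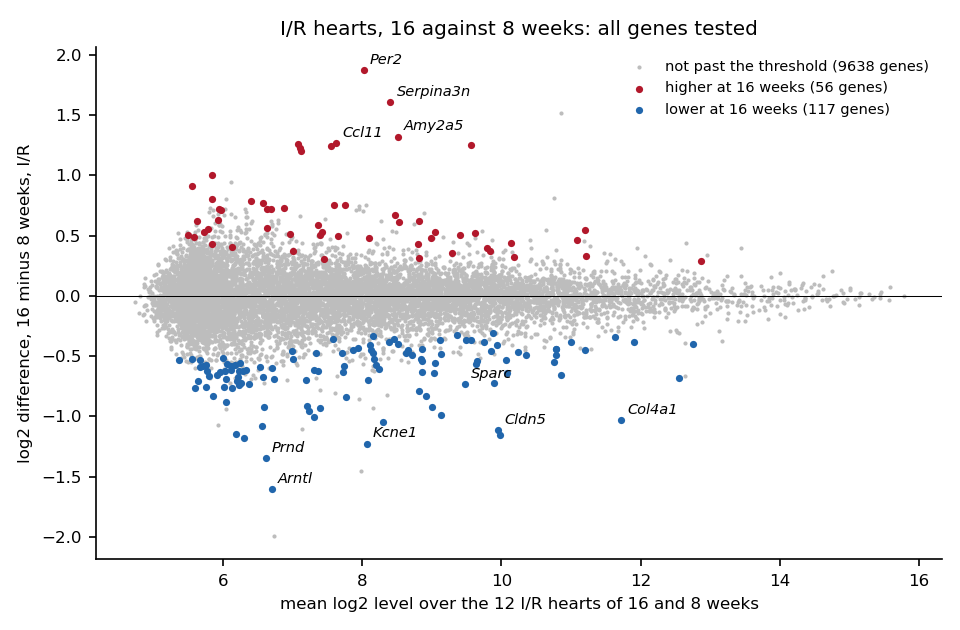
Difference between 16-week and 8-week I/R hearts (log2, vertical axis) against the mean log2 level over the 12 hearts (horizontal axis), 1 point per gene for 9811 genes. The 56 genes that rose are red, the 117 that fell are blue and the others grey; most genes lie close to 0 and the falls outnumber the rises.

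Among the genes that rose, the largest difference was that of Per2, a repressor of the circadian clock, which is described with the clock genes below, and next came secreted and metabolic proteins. Serpina3n, a secreted protease inhibitor of the acute phase, had log2 levels of 8.01, 9.06 and 10.74 in 16-week hearts (lowest, median, highest), against 7.26, 7.67 and 7.91 in 8-week hearts. Every 16-week heart lay above every 8-week heart, and Serpina3n rose by 1.61 ± 0.296 (3.05-fold, adjusted p = 0.0012). The gene belongs to a family of near-identical copies, so its probe may read several of them. Amy2a5, an amylase gene, had 8.66, 9.25 and 9.77 in 16-week hearts, against 7.30, 7.93 and 8.37 in 8-week hearts, again without overlap (1.32 ± 0.161, adjusted p = 2.0e-06). Amy1, its close relative, rose by 1.26 ± 0.209, and the array may not tell the amylase copies apart. Ccl11, the eosinophil chemokine eotaxin, had 7.70, 8.12 and 9.07 in 16-week hearts, against 6.51, 6.97 and 7.45 in 8-week hearts. Its groups did not overlap either, and it rose by 1.26 ± 0.223 (2.40-fold, adjusted p = 0.000705). These 4 genes stayed past the threshold whichever of the 12 hearts was left out.

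The other large rises were less even from heart to heart. Lcn2, a siderophore-binding protein of the acute phase and of neutrophils, had 6.61, 7.57 and 9.40 in 16-week hearts, against 5.97, 6.61 and 6.83 in 8-week hearts (1.22 ± 0.320, adjusted p = 0.0320). The 16-week hearts spread widely (SD 1.01, against 0.343 in 8-week hearts) and the groups overlapped. Of the 12 neutrophil markers on the array only Lcn2, Mmp9 and Camp passed the detection filter, Mmp9 was detected in no heart of either group and Camp in 1 of each, and the mean level of the 3 ran from 5.60 to 6.72 in 16-week and from 5.47 to 6.00 in 8-week hearts. Inmt, an N-methyltransferase, had 8.39, 10.65 and 11.02 in 16-week hearts, against 8.18, 9.07 and 9.37 in 8-week hearts (1.25 ± 0.343, adjusted p = 0.0420). A single 16-week heart lay within the 8-week range, and the call was lost on leaving out any of 9 of the 12 hearts (largest adjusted p = 0.142, without 16-week replicate 1). Abat, which breaks down the transmitter GABA, had 7.30, 7.70 and 8.21 in 16-week hearts, against 4.86, 7.15 and 7.72 in 8-week hearts. The probe was detected in 6 of 6 16-week and in 4 of 6 8-week hearts, and the difference was 1.20 ± 0.306 (adjusted p = 0.0263). Gcnt1, a glycosyltransferase of O-linked sugar chains, rose by 0.79, Tmem38b, the cation channel TRIC-B of the reticulum, by 0.77, and Cyp1b1, a cytochrome P450, by 0.75.

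The largest falls included genes of the vessel wall, of the matrix and of iron uptake. Prnd, the prion-like protein doppel, had 5.16, 6.03 and 6.35 in 16-week hearts, against 6.83, 7.32 and 7.66 in 8-week hearts. Its groups did not overlap, and it fell by 1.35 on the log2 scale (SE 0.213, 2.55-fold, adjusted p = 0.000241). Tfrc, the transferrin receptor through which cells take up iron, had 8.65, 9.33 and 10.49 in 16-week hearts, against 10.21, 10.56 and 11.01 in 8-week hearts. A single 16-week heart lay inside the 8-week range, and the fall was 1.15 (the log2 difference was -1.15 ± 0.277, adjusted p = 0.0181). This call was lost on leaving out 3 of the hearts (largest adjusted p = 0.0637, without 16-week replicate 3). Tfrc was the only 1 of the 17 measured genes of iron, haem and oxygen binding that changed, against 1.76% of all genes.

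Among the further falls, those of Rnf144a, Prc1 and Slc41a3 came without overlap between the groups. Rnf144a, a ubiquitin ligase, had 6.60, 6.77 and 7.22 in 16-week hearts, against 7.43, 7.86 and 8.06 in 8-week hearts (2.01-fold, adjusted p = 0.000326). Prc1, which bundles microtubules at cell division, had 5.17, 5.63 and 6.20 in 16-week hearts, against 6.29, 6.72 and 7.13 in 8-week hearts (-1.14 ± 0.253, adjusted p = 0.00975), but only 2 of 6 16-week hearts had a detected signal. None of the 18 measured genes of the cell cycle list, which does not hold Prc1, passed the threshold (median difference -0.12, smallest adjusted p = 0.0846 for Mcm5). Slc41a3, a magnesium transporter, fell by 0.99 on the log2 scale, but was no longer past the threshold without any of 9 of the hearts. Adamtsl2, a secreted matrix glycoprotein, fell by 1.18, Cmpk2, a mitochondrial nucleotide kinase, by 1.08, Trp53i11, a p53-induced gene, by 1.04, and Mest, an imprinted gene, by 0.96. Adamtsl2 was detected in 3 of 6 and Cmpk2 in 4 of 6 16-week hearts, and both in every 8-week heart. Kcne1, a potassium channel subunit, fell by 1.22 with a probe detected in every heart, and its second probe, detected on 1 of the 12 arrays, gives no check of it.

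**Figure D2:**
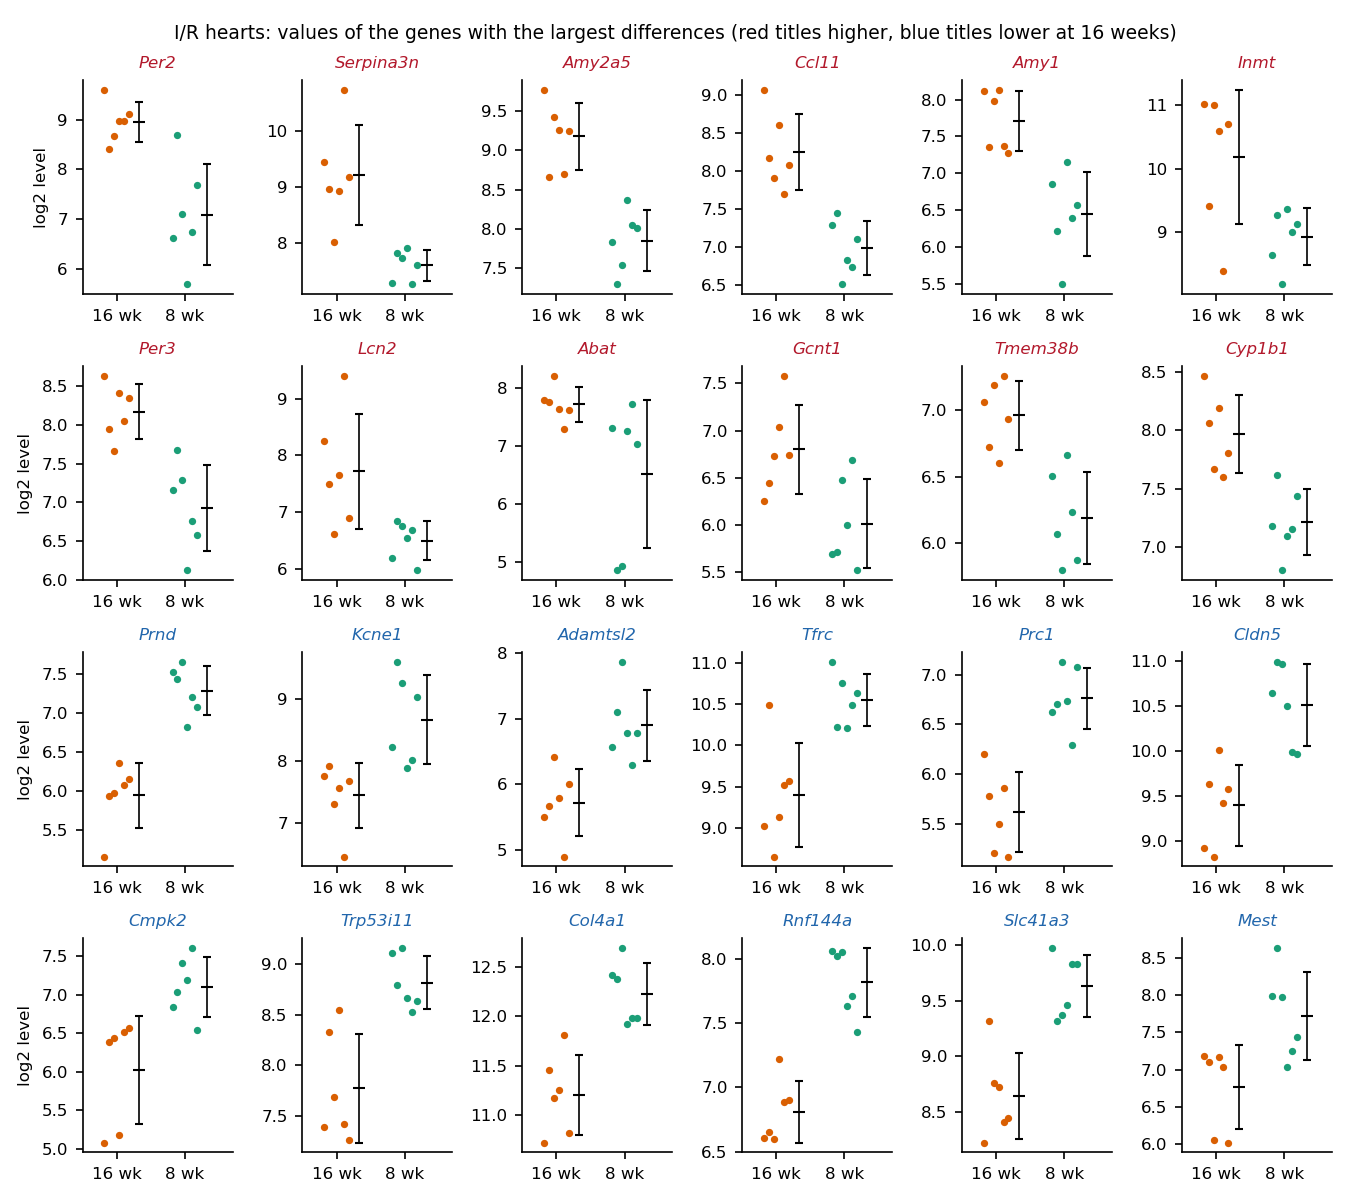
Log2 levels in each of 6 hearts of 16 weeks (orange, left) and 6 of 8 weeks (green, right), all I/R, for the 12 largest rises (red titles) and the 12 largest falls (blue titles) among genes detected in every heart of a group; bars are the mean and SD. Amy2a5, Amy1, Ccl11, Serpina3n, Prnd, Prc1, Col4a1, Rnf144a and Slc41a3 show groups that do not overlap, while 2 hearts of 8 weeks set the spread of Abat.

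Of 13 measured genes of the core clock and its output 3 changed: the repressors Per2 and Per3 rose and the activator Arntl fell, against 0.571% of all genes that rose and 1.19% that fell. The median difference of the 13 was 0.58, against -0.0035 for all genes, with 9 positive and 4 negative. Per2 had log2 levels of 8.41, 8.97 and 9.60 in 16-week hearts, against 5.69, 6.93 and 8.68 in 8-week hearts. The 8-week hearts were more spread (SD 1.02, against 0.406 in 16-week hearts) and the highest of them lay above the lowest 16-week heart. Per2 rose by 1.87 ± 0.501 (3.66-fold, adjusted p = 0.0366). Per3, a further Period gene, had 7.66, 8.19 and 8.63 in 16-week hearts, against 6.12, 6.96 and 7.67 in 8-week hearts. It rose by 1.24 ± 0.313 (adjusted p = 0.0254) with a probe detected in every heart, while its second probe was detected on 1 of the 12 arrays. Arntl, the activator, had 4.91, 5.79 and 7.04 in 16-week hearts, against 5.75, 7.64 and 8.42 in 8-week hearts. It fell by 1.60 on the log2 scale (SE 0.423, adjusted p = 0.0346) and was detected in 3 of 6 16-week and 5 of 6 8-week hearts.

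The clock genes that did not pass had these values. Dbp, a transcription factor that the clock drives directly, had 10.75, 11.84 and 12.09 in 16-week hearts, against 8.24, 10.17 and 11.41 in 8-week hearts (1.51 ± 0.518, adjusted p = 0.135). Its relative Tef differed by 0.81 (adjusted p = 0.115), the repressor Cry2 by 0.71 (adjusted p = 0.0525) and Per1 by 0.58 (adjusted p = 0.343). Clock, the partner of Arntl, differed by -0.27 (adjusted p = 0.209), and the nuclear receptors Nr1d1 and Nr1d2, which repress Arntl, by -0.21 and -0.30. Second probes had the opposite sign for Tef (-0.33) and Nr1d2 (0.37) and the same sign for Per1 (0.64) and Nr1d1 (-0.30), and none of them passed. The median of the list was 0.18 with the authors' processed values. Their lowest value was 7.271, whereas Arntl reached 4.91 in the values used here, so the 2 medians are not on a like scale. Without 16-week replicate 1 or without 8-week replicate 4 none of the 13 was past the threshold, and 1 was without 16-week replicate 4 or 6 or 8-week replicate 1, 3 or 5. Leaving out both 16-week hearts of low RNA integrity, median centring and array weights each left 0, whereas the fit to the 24 I/R arrays alone called 6.

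The promoters of Per3 and Arntl are shown because Per3 rose, Arntl fell and these windows held a match to the letters searched. Arntl had 2 windows, of which only the 1 with a match is shown, and Per2 had no window. The windows shown come from RefSeq (GRCm38.p6) and run from 250 bases before the gene's start to 50 after it. That of Per3 lies at chr4:151044616-151044915 on the minus strand and that of Arntl at chr7:113207261-113207560 on the plus strand. Capitals mark matches to the D-box TTANGTAA, bound by Dbp and Tef, in Per3 and to the core of the ROR element TAGGTCA, bound by the Ror and Nr1d receptors, in Arntl.
Per3: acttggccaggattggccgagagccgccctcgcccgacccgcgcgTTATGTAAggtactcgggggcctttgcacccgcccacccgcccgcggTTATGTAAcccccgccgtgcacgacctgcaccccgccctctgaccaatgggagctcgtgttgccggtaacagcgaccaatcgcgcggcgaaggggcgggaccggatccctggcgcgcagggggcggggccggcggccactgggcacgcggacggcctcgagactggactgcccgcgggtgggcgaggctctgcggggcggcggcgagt
Arntl: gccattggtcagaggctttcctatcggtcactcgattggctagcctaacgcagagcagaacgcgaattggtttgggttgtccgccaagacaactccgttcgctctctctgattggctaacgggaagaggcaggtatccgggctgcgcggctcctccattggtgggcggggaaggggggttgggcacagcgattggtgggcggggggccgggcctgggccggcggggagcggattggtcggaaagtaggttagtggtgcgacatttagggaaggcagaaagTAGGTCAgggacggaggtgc
The D-box letters were found on either strand in 2.32% of 32851 promoter windows of 300 bases and the ROR core in 2.61%. Of 13 measured clock genes, 11 had a window, of which 3 held the E-box CACGTG (7.15% of all windows), 1 the D-box and 1 the ROR core. Some genes had more than 1 window and counted if any matched, so these are counts of genes beside shares of windows. A match is a description of the letters and not evidence of binding.

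Of 36 measured genes of collagens and extracellular matrix 9 fell and none rose, against 1.19% of all genes that fell, and those with the smallest p encode collagens of the basement membrane and Sparc. The median difference of the 36 was -0.28, with 25 negative and 11 positive, while 50.8% of all genes were negative. In bulk tissue a fall of this kind can be fewer cells of a type or less RNA per cell, which cannot be told apart. Col4a1, a chain of the type IV collagen of basement membranes, had log2 levels of 10.72, 11.21 and 11.81 in 16-week hearts, against 11.92, 12.18 and 12.69 in 8-week hearts. The groups did not overlap, and Col4a1 fell by 1.03 on the log2 scale (SE 0.161, 2.04-fold, adjusted p = 0.000241). Col4a2, the chain that pairs with it, had 11.64, 12.23 and 12.79 in 16-week hearts, against 12.50, 12.90 and 13.23 in 8-week hearts (-0.68 ± 0.142, adjusted p = 0.0051). Here the groups overlapped, and the fall was smaller than that of Col4a1.

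Sparc, a collagen-binding protein of the matrix, had 8.56, 9.28 and 9.63 in 16-week hearts, against 9.51, 9.92 and 10.05 in 8-week hearts (-0.73 ± 0.146, adjusted p = 0.00381). Col15a1, a collagen of the basement membrane zone, fell by 0.92 on the log2 scale (adjusted p = 0.00403). The other matrix genes that fell were Col6a1, the perlecan gene Hspg2, the basement membrane linker Nid1, the elastin gene Eln and Col1a1 of fibrillar collagen. Col1a1, which is also a fibroblast marker, had 7.58, 8.53 and 9.42 in 16-week hearts, against 8.68, 9.32 and 9.60 in 8-week hearts (-0.79 ± 0.207, adjusted p = 0.0320). Col3a1, a fibrillar collagen as well, differed by -0.85 but with an adjusted p of 0.0799. Of 15 measured matrix proteases and their inhibitors 2 fell, against 1.19% of all genes that fell. They were Mmp14, which is anchored in the cell membrane (-0.63 ± 0.159, adjusted p = 0.0246, groups without overlap), and Adamts12 (-0.74 ± 0.187, adjusted p = 0.0255), which was detected in 3 of 6 16-week and 6 of 6 8-week hearts. The count of matrix genes past the threshold was 5 without 16-week replicate 1, without 8-week replicate 1 and without 8-week replicate 3, and neither protease passed without 16-week replicate 1, 3 or 6 or 8-week replicate 1 or 3. Leaving out both 16-week hearts of low RNA integrity left 1 matrix gene, and median centring left 3.

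The promoter window of Col4a1 is shown because it overlaps that of Col4a2, and both genes fell. In RefSeq (GRCm38.p6) their starts lie 21 bases apart on opposite strands. The window of Col4a1, at chr8:11312777-11313076 on the minus strand, overlaps that of Col4a2, at chr8:11312555-11312854 on the plus strand, over the 78 bases in capitals. This overlap includes the 50 bases after the start of each gene, so it is not all sequence before the starts.
Col4a1: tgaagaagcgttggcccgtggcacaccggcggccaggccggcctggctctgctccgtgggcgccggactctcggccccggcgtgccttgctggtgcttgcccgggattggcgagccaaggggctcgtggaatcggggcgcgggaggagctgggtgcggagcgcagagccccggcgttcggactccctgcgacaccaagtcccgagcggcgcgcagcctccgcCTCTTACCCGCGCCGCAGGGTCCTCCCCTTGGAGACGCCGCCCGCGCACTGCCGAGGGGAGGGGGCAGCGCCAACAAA

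Of 18 measured markers of endothelial cells 5 fell and none rose, against 1.19% of all genes that fell. The median difference of the 18 was -0.21, and 17 of them were negative, against 50.8% of all genes. Cldn5, which seals the tight junctions of endothelium, had log2 levels of 8.83, 9.50 and 10.01 in 16-week hearts, against 9.96, 10.57 and 10.99 in 8-week hearts. Its groups overlapped only at their edges, and Cldn5 fell by 1.11 on the log2 scale (SE 0.198, 2.17-fold, adjusted p = 0.000747). Cd93, a surface receptor of endothelium, had 10.26, 10.48 and 10.92 in 16-week hearts, against 10.87, 11.21 and 11.47 in 8-week hearts (-0.65 ± 0.150, adjusted p = 0.0127). A further probe of Cd93 showed -0.69 and passed on its own (adjusted p = 0.0017). The adhesion protein Esam fell by 0.45 and the secreted protein Egfl7 by 0.44, and the fifth was Cdh5, the cadherin of endothelial junctions (-0.53, adjusted p = 0.0333).

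Other defining endothelial markers did not pass the test. Pecam1 differed by -0.27, Tie1 by -0.22, Tek by -0.17, Emcn by -0.12 and Vwf by -0.05. The mean level of the 18 ran from 8.91 to 9.26 in 16-week hearts and from 9.12 to 9.66 in 8-week hearts. Aplnr, the apelin receptor, which endothelial cells carry and which the marker list does not hold, had 6.47, 6.86 and 7.69 in 16-week hearts, against 7.47, 7.91 and 8.15 in 8-week hearts (-0.93 ± 0.163, adjusted p = 0.000705). The count of endothelial markers past the threshold fell to 3 without 16-week replicate 1 and without 8-week replicate 2, and to 1 under median centring and without both 16-week hearts of low RNA integrity.

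Among markers of the other cell types only Col1a1 of fibroblasts and Lcn2 of neutrophils passed the threshold, and neither passed without 16-week replicate 1. Of 15 cardiomyocyte markers none changed, and their mean level ran from 14.64 to 14.76 in 16-week hearts and from 14.66 to 14.73 in 8-week hearts. Of 14 fibroblast markers Col1a1 fell, against 1.19% of all genes that fell, and 8 were negative and 6 positive, with a median of -0.18. Col3a1 differed by -0.85, the surface protein Thy1 by -0.52, Col1a2 by -0.46 and Fstl1 by -0.31 without passing, while Dcn differed by 0.08, Lum by 0.02 and Pdgfra by 0.00. The mean level of the 14 ran from 8.79 to 9.19 in 16-week hearts and from 9.02 to 9.36 in 8-week hearts, and 4 of them had an unadjusted p under 0.05. None of 14 markers of macrophages and monocytes, 12 of smooth muscle and pericytes, 7 of lymphatic endothelium, 6 of Schwann cells and neurons, 5 each of adipocytes, mast cells and skeletal muscle, 4 of T and NK cells, 3 of platelets, 2 each of erythroid cells and epicardium or 1 of B cells passed, with 0 to 2 members of each at an unadjusted p under 0.05 (limma). Some of these differed by as much as the endothelial markers Esam and Egfl7 without passing, among them Tnni2, a troponin of fast skeletal muscle (0.49), Kit of mast cells (-0.49), Ppbp of platelets (-0.47) and Adipoq of adipocytes (-0.65). The Adipoq difference came from 8-week replicate 4 (10.11), and the medians were 5.93 in 16-week and 5.96 in 8-week hearts. Adipoq was detected in 4 of 6 16-week and 3 of 6 8-week hearts, and Ppbp in 2 of 6 and 6 of 6. The defining markers of the cardiomyocyte were detected in every heart, as the labelled tissue requires. Atrial markers varied widely within each group: Myl7, the atrial myosin light chain, had 6.37, 10.01 and 11.64 in 16-week hearts, against 5.29, 10.20 and 11.15 in 8-week hearts, a difference of -0.07, and none of the 6 measured atrial markers passed. The part of cell makeup in the falls of matrix and endothelial genes was not tested.

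Of 27 measured genes of the interferon response and antigen presentation, 4 fell and none rose, against 1.19% of all genes that fell, and the 4 were Bst2, Ifit3, Irf9 and Irf7. The median difference of the 27 was -0.19, and 24 were negative, against 50.8% of all genes. Bst2, which tethers enveloped viruses to the cell, had log2 levels of 9.46, 9.76 and 10.29 in 16-week hearts, against 10.05, 10.43 and 10.70 in 8-week hearts (-0.64 ± 0.126, adjusted p = 0.00317). Of the 6 16-week hearts 5 lay below the whole 8-week range. Ifit3, an antiviral protein, had 5.35, 5.59 and 5.89 in 16-week hearts, against 5.86, 6.50 and 6.92 in 8-week hearts (-0.88 ± 0.199, adjusted p = 0.0116). Its probe was detected in 1 of 6 16-week hearts and in all 8-week hearts, and the gene has close copies that the probe may also read. The transcription factors Irf9 and Irf7, which carry the interferon signal to these genes, fell by 0.45 and 0.46 (adjusted p = 0.0263 and 0.0309).

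The remaining interferon genes did not pass. The antiviral Rsad2 differed by -0.48 (adjusted p = 0.0586), B2m, the light chain of class I antigen-presenting molecules, by -0.37 and the class II gene H2-Ab1 by -0.45. The count past the threshold was 2 without 16-week replicate 3, without 8-week replicate 2 and without 8-week replicate 3. Without both 16-week hearts of low RNA integrity it was 0, and under median centring it was 1. The promoters of Bst2 and Ifit3 are shown because both held the interferon-stimulated response element, searched as the letters GAAA, any 2 bases and GAAA again on either strand and marked in capitals. They are RefSeq windows of GRCm38.p6 at chr8:71537423-71537722 on the minus strand (Bst2) and chr19:34583279-34583578 on the plus strand (Ifit3).
Bst2: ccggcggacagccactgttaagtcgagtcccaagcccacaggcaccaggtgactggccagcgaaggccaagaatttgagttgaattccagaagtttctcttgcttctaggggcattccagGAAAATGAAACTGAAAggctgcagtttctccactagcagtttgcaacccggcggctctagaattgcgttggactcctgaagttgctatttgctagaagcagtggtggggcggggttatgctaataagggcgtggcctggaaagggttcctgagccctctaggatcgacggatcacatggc
Ifit3: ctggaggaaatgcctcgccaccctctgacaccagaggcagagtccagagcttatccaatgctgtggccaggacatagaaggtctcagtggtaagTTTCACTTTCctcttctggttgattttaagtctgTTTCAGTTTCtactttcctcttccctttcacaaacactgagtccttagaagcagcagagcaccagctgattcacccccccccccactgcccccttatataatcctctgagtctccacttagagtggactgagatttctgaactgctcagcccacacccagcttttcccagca
In Bst2 the 2 matches overlap, and in Ifit3 the 2 matches lie on the other strand and apart from each other. These letters were found in 3.44% of the 32851 windows, and in 7 of the 20 measured interferon genes that had a window, which included neither Irf9 nor Irf7. A gene counted if any of its windows matched, and several had more than 1, so the count of genes and the share of windows differ in unit.

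Of 31 measured genes of calcium handling and ion channels Slc8a1 rose and Hcn2 and Kcne1 fell, against 0.571% of all genes that rose and 1.19% that fell. The median difference of the 31 was -0.01. Slc8a1, the sodium-calcium exchanger that clears calcium from the muscle cell, had log2 levels of 11.19, 11.39 and 11.58 in 16-week hearts, against 10.81, 11.11 and 11.13 in 8-week hearts. The groups did not overlap, but the rise was small (0.33 ± 0.0903, 1.26-fold, adjusted p = 0.0386) and was lost on leaving out any of 8 of the hearts. Hcn2, a pacemaker channel, had 8.45, 8.65 and 9.14 in 16-week hearts, against 9.13, 9.40 and 9.51 in 8-week hearts (-0.64 ± 0.130, adjusted p = 0.00412). The main calcium channel gene Cacna1c differed by 0.32 and its subunit Cacnb2 by 0.38, and neither passed.

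Of 21 measured genes of growth hormone, IGF and insulin signalling 3 fell and none rose, against 1.19% of all genes that fell, with a median difference of -0.02. Igf2, a fetal growth factor, fell by 0.46 (adjusted p = 0.0241), the IGF-binding Igfbp7 by 0.40 (adjusted p = 0.0309), and Mest, which the list holds as an imprinted growth gene, had 6.02, 7.07 and 7.18 in 16-week hearts, against 7.04, 7.71 and 8.63 in 8-week hearts (adjusted p = 0.0217). None of the list was past the threshold without 8-week replicate 1 or without both hearts of low RNA integrity, and 1 was without 16-week replicate 1 or 3 or 8-week replicate 2 or 3. Of 31 genes of fatty acid uptake and oxidation only Slc27a1, a fatty acid transporter, changed, against 1.76% of all genes. It had 8.42, 8.76 and 9.19 in 16-week hearts, against 7.73, 8.18 and 8.50 in 8-week hearts (0.67 ± 0.152, adjusted p = 0.0117), and without 8-week replicate 3 its adjusted p was 0.0505. Among 28 cytokine and NF-kappaB targets Ccl11 alone changed, and among 24 genes of the glucocorticoid and fasting response Lcn2 alone, each again against 1.76% of all genes.

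The classic early response to I/R showed no age step past the threshold. None of 25 immediate early genes (median -0.13, unadjusted p under 0.05 in 3) and none of 16 heat shock genes and co-chaperones (median -0.08, unadjusted p under 0.05 in 1) passed. Jun, an immediate early transcription factor, differed by -0.37 (adjusted p = 0.27), and Hspa1a, the inducible chaperone HSP70, had an adjusted p of 0.294. The same held for 50 genes of oxidative phosphorylation (median 0.00, smallest adjusted p = 0.116 for Cyc1), 40 of the mitochondrial ribosome, 36 of the cytosolic ribosome, 35 of the proteasome, 28 of autophagy and lysosome and 25 of the sarcomere. None passed among 25 genes of hypoxia and glycolysis, 22 each of endoplasmic reticulum stress and of beta adrenergic signalling, 21 of hypertrophy, 20 of oxidative stress and 19 each of apoptosis and of the tricarboxylic acid cycle either. Each of these lists had between 0 and 6 members at an unadjusted p under 0.05 (limma). With 6 hearts a group even differences larger than the spread between hearts could be missed: of simulated differences of 0.5 on the log2 scale 61% were called, and of differences of 1 96% were called, with 14 false calls in the same simulation. The simulated spread of each gene was that shared over all groups, which is smaller than the spread of the I/R hearts. For I/R hearts themselves the shares called may therefore be lower.

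**Figure D3:**
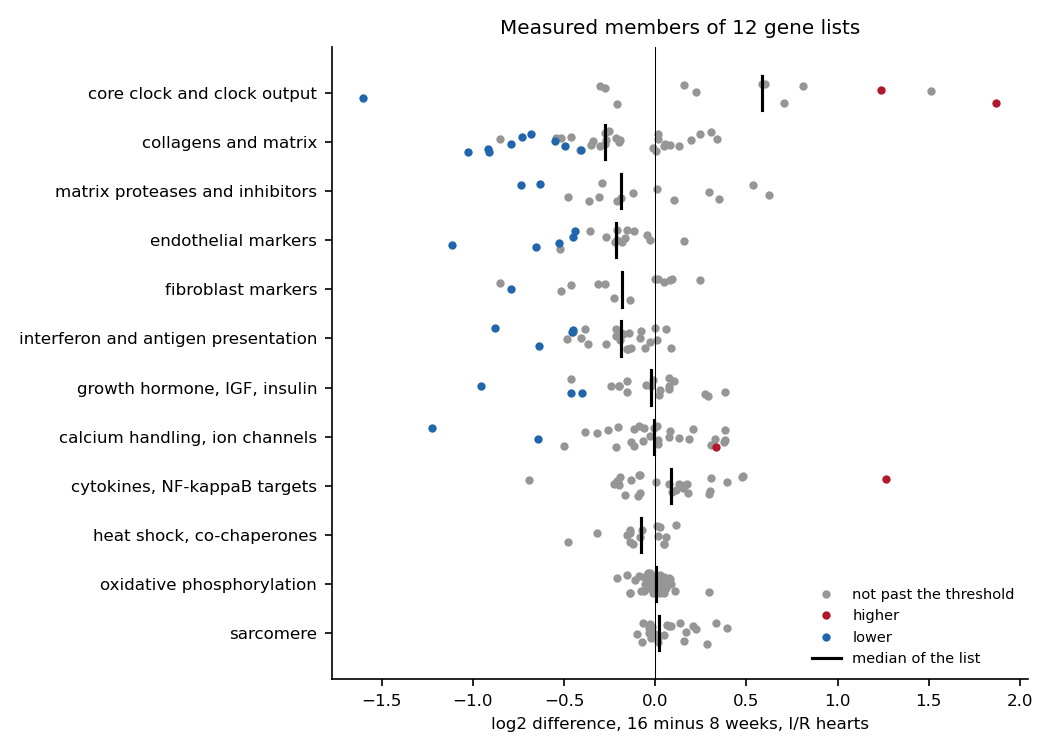
Log2 difference between 16-week and 8-week I/R hearts (horizontal axis) for every measured member of 12 gene lists, 1 point per gene; red points rose, blue points fell, grey points did not pass, and the black bar is the median of the list. The median of the clock list lies to the right of 0, with Arntl far to the left, and the medians of the matrix, endothelial and interferon lists lie to the left of 0, where most of their members are grey; oxidative phosphorylation and the sarcomere gather at 0.

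The same step of age in normoxic hearts, which share no heart with the I/R groups, gave fewer calls. Both counts used a spread shared by I/R and normoxic hearts, although I/R hearts varied more. The gap between the counts therefore does not measure how the size of the step differed. Between 16 and 8 weeks 4 genes changed in normoxic hearts (0.0408%), with 559 at an unadjusted p under 0.05 (5.7%). These were Amy2a5 (1.32 in I/R and 0.91 in normoxic hearts), the aldehyde oxidase Aox1 (0.53 in I/R and 0.68 in normoxic hearts), the decarboxylase Ddc, which makes monoamine transmitters (-0.62 in I/R and -0.85 in normoxic hearts), and Kcne1 (-1.22 in I/R and -1.35 in normoxic hearts). All 4 had also changed in I/R hearts. Of the 56 genes that rose with age after I/R, 46 had a positive difference in normoxic hearts (82.1%, against 49.8% of all genes), with a median of 0.56 in I/R and 0.14 in normoxic hearts. Of the 117 that fell, 96 were negative in normoxic hearts (82.1%, against 50.2% of all genes), with medians of -0.59 in I/R and -0.12 in normoxic hearts. In 47 of the 173 the normoxic difference had the same sign and an unadjusted p under 0.05, and in 0 the opposite sign and such a p. Since the 173 were chosen on the I/R difference, a smaller normoxic difference is no test.

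The test of the difference between these steps found 1 gene over all 9811 (0.0102%), with 553 at an unadjusted p under 0.05 (5.64%). The gene was 1700066M21Rik, which has no named function here and lies outside the naming rule. It had 5.87, 6.37 and 6.68 in 16-week I/R hearts, against 5.08, 5.27 and 5.75 in 8-week I/R hearts, and was detected in 5 of 6 and in 1 of 6. In normoxic hearts the probe of 1700066M21Rik was detected in 0 of 6 at 16 weeks and in 2 of 6 at 8 weeks. Its normoxic step therefore rests mostly on signals that were not detected. Its step was 1.00 in I/R and -0.25 in normoxic hearts, and the steps differed by 1.25 (adjusted p = 0.0133, and 0.0512 without normoxic 8-week replicate 3, where 0 genes passed). For Prnd the steps differed by -1.27, with its probe detected in 2 of 6 normoxic hearts at each of these ages. They differed by -1.12 for the mitochondrial glutamate carrier Slc25a22, by -0.92 for Aplnr and by -1.71 for the mitochondrial uncoupling protein Ucp3. For Orc3 of the origin recognition complex the steps differed by -0.89, and for Pdlim3, a protein of the muscle Z line, by 0.87. These 6 had the smallest p among genes detected in every heart of a group, and none passed over all genes (smallest adjusted p = 0.389 for Prnd). No change described here other than that of 1700066M21Rik was therefore shown to differ between I/R and normoxic hearts.

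**Figure D4:**
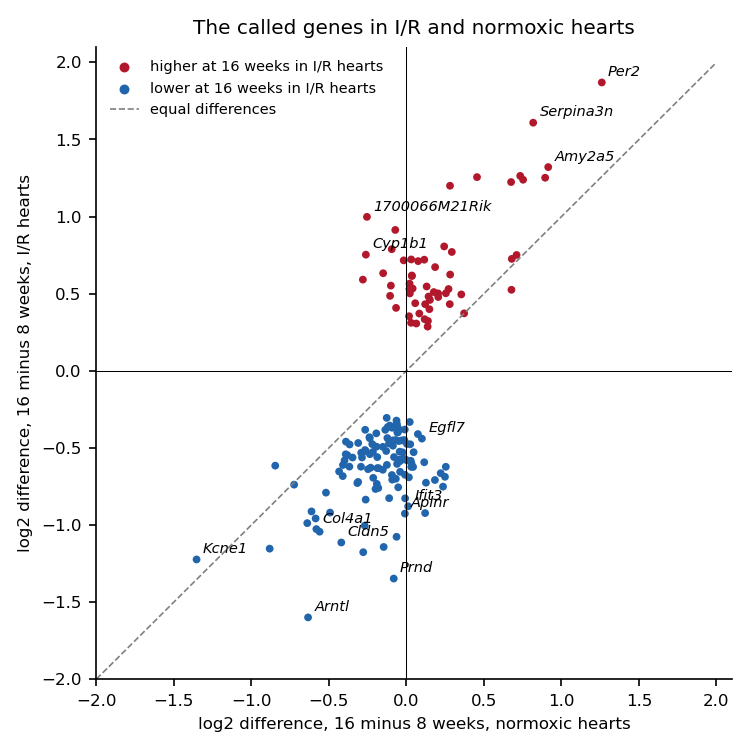
Log2 difference between 16 and 8 weeks in I/R hearts (vertical axis) against that in normoxic hearts (horizontal axis) for the 173 genes that changed in I/R hearts, with the line of equal differences dashed. Most red points (rises) lie right of 0 and most blue points (falls) left of 0; the points lie farther from 0 on the vertical axis, on which they were chosen.

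The genes differed in what followed at later ages, which is given as levels only, since these groups are compared with the same 8-week hearts. Per2 averaged 7.09 ± 1.02, 8.96 ± 0.406, 9.16 ± 0.469 and 9.09 ± 0.692 in I/R hearts of 8, 16, 32 and 48 weeks (SD, n = 6 each), and in normoxic hearts 6.54, 7.80, 8.16 and 7.07. Normoxic hearts varied widely within each age, from 5.67 to 8.83, 6.21 to 9.03, 6.37 to 8.94 and 5.85 to 8.47. After I/R the mean Per2 level at 16 weeks was close to that of the older hearts. Arntl ran the other way, with 7.50, 5.90, 5.64 and 5.42 in I/R hearts at these ages. Col4a1 averaged 12.23 ± 0.312, 11.20 ± 0.406, 10.96 ± 0.142 and 10.92 ± 0.234 in I/R hearts and 12.24, 11.66, 11.42 and 11.54 in normoxic hearts, so the step before 16 weeks was the largest of its age steps in both. Ccl11 differed from 8-week I/R hearts by 1.26, 2.21 and 2.37 at 16, 32 and 48 weeks, and Serpina3n by 1.61, 1.93 and 2.31.

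For a second set of genes the value at 16 weeks stood apart from those of the other ages. Cldn5 averaged 10.51 ± 0.454, 9.40 ± 0.449, 10.34 ± 0.422 and 10.34 ± 0.326 in I/R hearts of 8, 16, 32 and 48 weeks, so the 16-week group was the lowest of the I/R groups. In normoxic hearts Cldn5 averaged 12.48, 12.06, 12.00 and 12.14, above the I/R mean at every age. Bst2 averaged 10.40 ± 0.246, 9.77 ± 0.299, 10.37 ± 0.306 and 10.28 ± 0.126 in I/R hearts. Lcn2 differed from 8-week I/R hearts by 1.22, -0.04 and -0.02 at 16, 32 and 48 weeks, Slc41a3 by -0.99, -0.15 and -0.25, and Ifit3 by -0.88, -0.14 and -0.31. These genes were chosen on the difference between 16 and 8 weeks, so a smaller difference at other ages is no test. The 16-week I/R arrays also had a higher background than the 8-week ones. Background was 168.7 to 181.4 at 32 and 163.2 to 194 at 48 weeks, with 11157 to 13662 and 11072 to 12396 probes detected. Mean RNA integrity in I/R hearts was 8.08, 8.03, 7.75 and 7.60 at 8, 16, 32 and 48 weeks. The part of array and RNA quality in these values was not tested.

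**Figure D5:**
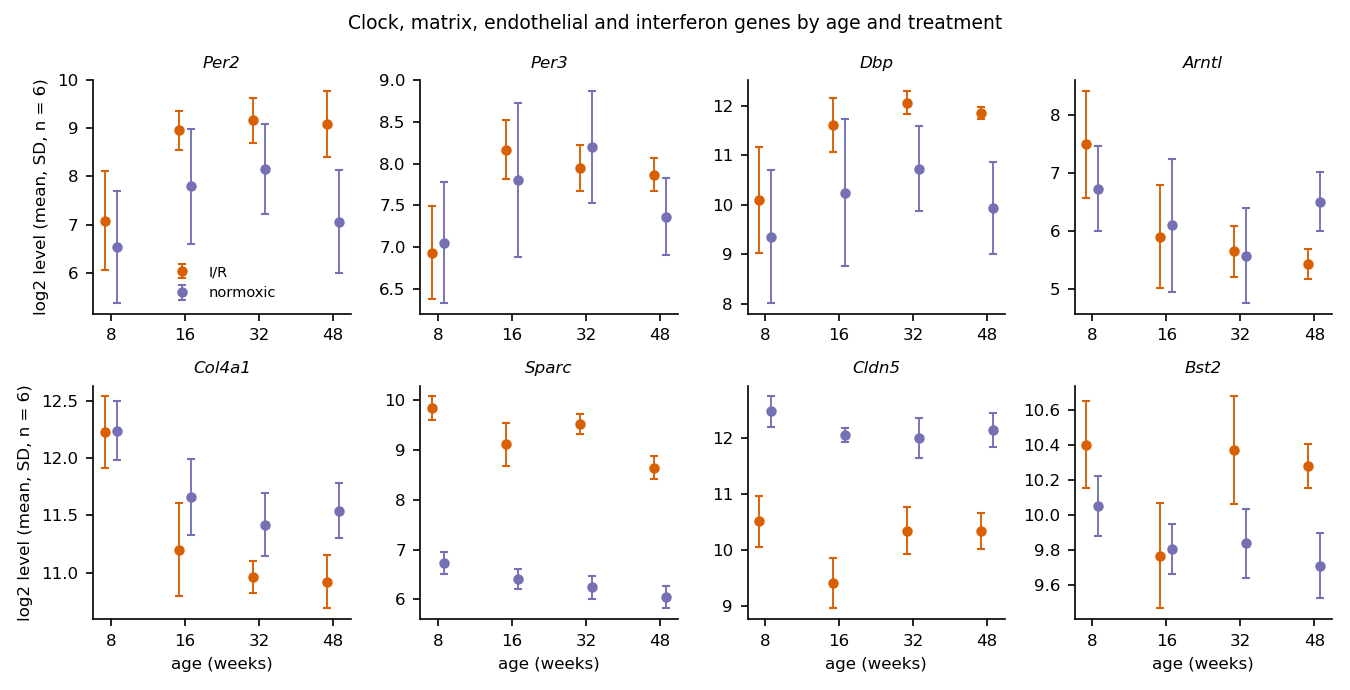
Mean log2 level with SD (n = 6 hearts a group) at 8, 16, 32 and 48 weeks (horizontal axis) in I/R (orange) and normoxic (purple) hearts for clock genes (upper panels) and for matrix, endothelial and interferon genes (lower panels). Per2, Dbp, Arntl and Col4a1 stay near their 16-week level in older I/R hearts, whereas Cldn5 and Bst2 are lowest at 16 weeks among the I/R groups. Cldn5 lies below its normoxic level in I/R hearts of every age.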

How the data were processed

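The deposited signals are probe intensities on a linear scale, not normalized, per the file headers. The deposited detection column rose with the signal on all arrays (lowest rank correlation 0.995) and was read as 1 minus the detection p, a fraction. The authors' deposited processed values are close to log2, with lumi named in the submitters' processing notes without a version. Each of their 48 columns was closest to its own array, with column medians of 7.812 to 7.83, uncentred and running in the direction of the signal. Their exact transform and normalization are not given in the sources used here, and they served as an alternative.

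Of 46628 lines 4 named no probe. The platform annotation gave 1 symbol for 29971 of the other 46624 probes, several for 10 and none for 16643, and 29916 symbols were updated through Entrez numbers. Signals were background-corrected (normexp from detection p-values, offset 16), quantile normalized and taken to log2 with limma 3.58.1 in R 4.3.3 (statmod 1.5.0, data.table, version 1.17.8). Probes with a detection p under 0.05 on at least 6 of 48 arrays were kept (17624). The brightest probe stood for a gene (9811 genes, 2813 with a second probe). A mean for each of 8 groups was fitted to all 48 arrays (lmFit, eBayes), two-sided, with Benjamini-Hochberg adjustment over all genes and an adjusted p under 0.05 as threshold. The contrasts were 16 minus 8 weeks in I/R hearts, the same in normoxic hearts, and their difference. The fit was tested on simulated data of 9811 genes with 100 changed by each of 2 sizes, with each gene's spread taken over all 8 groups. Array measures were compared by exact permutation.

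The gene lists (26 pathways, 17 cell types, 732 of 991 listed genes measured) were chosen with earlier results of these data known. The named genes are the 12 largest changes each way among genes past the threshold and detected in every heart of a group, the 6 smallest p of the difference between steps, up to 4 members past the threshold per list (the smallest p where more passed, or the member of smallest p where none did), and the genes that passed in normoxic hearts. Other genes were named after their values were seen. Alternatives were median centring, the 24 I/R arrays alone, a fit of the groups compared alone, no background correction, the authors' values, a strict filter (24 arrays), no filter, single probes, RIN as a covariate, array weights, a replicate block and leaving out hearts, and, added after seeing the data, leaving out both 16-week hearts of low RIN and testing genes detected on all 12 arrays. No test of a whole list was run.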

Additional observations from a re-analysis of the deposited data

Results flagged for a closer look

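The values flagged here each stood apart in 1 group, or differed between I/R and normoxic hearts. Of 108 groups of 6 values tested for a value far from the rest, 5 had one, and chance gives about 1 in 20. The level of Prnd in 16-week I/R replicate 1 was 5.155, the lowest of its group and far from the other 5. Orc3 in 16-week I/R replicate 3 was 6.013, the highest of its group, whose other hearts lay close together. Arntl in 8-week I/R replicate 2 was 5.745, below the others of that group, and the same heart had the highest Per2 level of its group (8.68). Slc8a1 in the same heart was 10.81, also the lowest of its group. The array of 8-week I/R replicate 6 detected 13854 probes, more than the other 5. The 16 minus 8 weeks step of 1700066M21Rik differed between I/R and normoxic hearts by 1.253 on the log2 scale, by the test over all genes. Its probe was detected in 0 of 6 normoxic hearts at 16 weeks and in 2 of 6 at 8 weeks.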

How the results depend on the processing

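All 173 genes kept their direction under every alternative that tested them, and the number of genes past the threshold ran from 3 to 197. It was 46 (20 higher, 26 lower) under median centring, 85 (29, 56) with the 24 I/R arrays alone, 3 (0, 3) with the fit limited to the groups compared, 80 (25, 55) with array weights and 59 (23, 36) without both 16-week hearts of low RIN. Testing single probes called 219 of 17624 probes (86, 133), a count of probes and not of genes. No background correction gave 197 genes, the authors' values 191, RIN as a covariate 173, the strict filter 171, no filter 150 and genes detected on all 12 arrays 142. Leaving out 1 heart gave 89 to 192 in all, 25 to 63 higher and 60 to 129 lower. The replicate numbers of the labels did not pair the hearts (correlations of same-numbered hearts -0.0859 to 0.0305), and the replicate block gave 155. In normoxic hearts 4 genes became 2 with RIN as a covariate, 23 with array weights and 0 to 4 without 1 heart. For the difference between the steps 1 gene became 0 under the strict filter, 2 without a filter, with array weights and without the low-RIN hearts, and 0 to 3 without 1 heart. In the order median centring, groups compared only and low-RIN hearts left out, members past the threshold were 1, 0 and 1 for calcium handling, 1, 0 and 1 for endothelial markers, 3, 0 and 1 for the matrix, 0, 0 and 0 for the clock, 0, 0 and 0 for growth, and 1, 0 and 0 for interferon. With the 24 I/R arrays alone they were 5 for the matrix, 6 for the clock, 0 for growth and 2 for interferon, and with array weights 2 for endothelial markers, 0 for the clock, 0 for growth and 2 for interferon. Without 1 heart they ran from 2 to 3 for calcium handling, 3 to 6 for endothelial markers, 5 to 11 for the matrix, 0 to 4 for the clock, 0 to 3 for growth and 2 to 4 for interferon. The cause of these differences was not tested. Signal over background limits the dim genes: 42 of the 117 genes that fell were detected in fewer 16-week than 8-week hearts, and 19 of the 56 that rose in fewer 8-week than 16-week hearts. Of 50 second probes 33 were detected on at least 6 of the 12 arrays, of which 26 had the same sign and 1 the opposite sign with an unadjusted p under 0.05.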

Other observations

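Genes outside the lists and the naming rule were singled out here after their values were seen. Picked in this way, they are no test of the groups above and are given as values only. Kif23, a motor of the last step of cell division, fell in 16-week I/R hearts as Prc1 did (-0.92, adjusted p = 0.0231), and differed by 0.12 in normoxic hearts. Pcdh12, a protocadherin of endothelial junctions, fell by 0.84 on the log2 scale (adjusted p = 0.000241), the receptor Notch1 by 0.60, Plxnd1, a semaphorin receptor of vessels, by 0.56 and Nrp1, a co-receptor for VEGF, by 0.38, all detected in every heart of both groups. Ddx58, the RNA sensor RIG-I, fell by 0.73 (adjusted p = 0.0217) and was detected in 3 of 6 16-week hearts, against 6 of 6 8-week hearts.

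Among the genes that rose, Il33, an alarm cytokine of the IL-1 family, differed by 0.75 in I/R and 0.71 in normoxic hearts, and Cds1, which makes CDP-diacylglycerol for phospholipids, by 0.73 and 0.68. Maob, a mitochondrial monoamine oxidase, differed by 0.37 in both. Fbp2, the muscle fructose bisphosphatase, rose by 0.46 in I/R hearts and differed by 0.15 in normoxic hearts, and Acat1, an enzyme of ketone use, rose by 0.50 and differed by 0.25. None of these differences between the steps passed over all genes.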
